A study of Mus musculus with 22 samples.

Results

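The 10 genes described here are Epcam, Cdh1, Cdh2, Vim, Zeb1, Zeb2, Snai1, Snai2, Twist1 and Twist2, a set of adhesion molecules, an intermediate filament and transcription factors that mark or regulate epithelial-mesenchymal transition (EMT). They were taken by name from the 31053 genes in the count tables, and the rule that names them sets no threshold on a measured value. Each gene was followed in single-cell RNA profiles of blood and solid organs from mice that had no tumours, across kinds of library, Nalcn genotypes and classes of cell gated by marker genes.

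EMT is a programme by which epithelial cells loosen their junctions, lose polarity and take on a migratory, mesenchymal form. It acts in embryonic development and wound repair and is studied as a route by which carcinoma cells leave a tumour. Factors of the SNAI, ZEB and TWIST families are its core regulators, and SNAI and ZEB proteins bind short E-box motifs and repress junction genes such as Cdh1. Vim and the Zeb genes are also used by leukocytes, fibroblasts and endothelial cells that have undergone no such transition, so a single one of these transcripts does not mark the state.

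The study asked what loss of the sodium leak channel gene Nalcn does to the cells that epithelia shed into blood. Its libraries were made with a 3' droplet chemistry. Each barcode marks the content of 1 droplet, and transcripts are counted by unique molecular identifiers (UMIs). Cells carrying the ZsGreen lineage tag and sorted from peripheral blood (ntCZC) came from 10 libraries, pooled solid organs (tissue) from 9 libraries with an assigned genotype, and unsorted peripheral blood mononuclear cells (PBMC) from 1 library. Another 2 tissue libraries had labels that name different genotypes and entered no comparison of groups. Tissue null replicate 3, 1 of only 2 null tissue libraries, has no genotype in its title and was assigned by its strain entry alone.

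Every mouse carried Prom1-CreERT2, a tamoxifen-inducible recombinase driven by the promoter of the stem cell gene Prom1, and the Rosa26ZSG reporter that this recombinase turns on. Wild type (wt) mice had no altered Nalcn allele, and the Nalcn-het and Nalcn-null strains (het, null) lost it in cells of the Prom1 lineage, so most cells of the organ pools need not have recombined. The ntCZC libraries comprised 2 wt (571 and 608 days, both male), 4 het (551 to 649 days, 3 male and 1 female) and 4 null (551 to 613 days, 1 male and 3 female). The tissue libraries pooled kidney, liver, lung and stomach with epididymis in males or uterus in females, and comprised 5 wt (571 to 654 days, 3 male and 2 female), 2 het (551 days, both male) and 2 null (552 days, male, and 611 days, female). The PBMC library came from a wt male of 120 days. The labels name no animals, and some libraries of 1 group share age and sex, such as replicates 1 and 2 of both tissue wt and tissue het, or replicates 2 and 4 of ntCZC het. Age and sex also match between kinds, at 571 and 608 days in male wt, 551 days in male het and 552 days in male null. Libraries may therefore share a mouse within a group and between ntCZC and tissue, and p-values then measure only the spread between libraries.

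The ntCZC libraries held 50 to 621 barcodes and 161541 to 2600526 UMIs, the tissue libraries 1856 to 27857 barcodes and 8571019 to 139793927 UMIs, and the PBMC library 752 barcodes and 1422144 UMIs. Levels are given as CPM, the UMIs of a gene per 1e6 UMIs of all genes, both summed over the barcodes of a library or class. ntCZC wt replicate 3 stood apart. Its median barcode had 325 UMIs, 11 of its 77 barcodes passed the quality filter, and the haemoglobin genes took up to 735423 CPM of it. Any 2 libraries shared at most 226 cell barcodes, found for tissue wt replicates 2 and 4 (0.860% of the smaller), and the largest share of a smaller library over all pairs was 2.60%. Nalcn itself gave 0 UMIs in ntCZC and 74 in tissue, too few to check the genotype labels. Barcodes with 200 or more genes and no more than 25% of UMIs from mitochondria were gated as leukocyte, epithelial, fibroblast or endothelial by lists of 10 to 16 marker genes that hold none of the 10 genes. The ntCZC label is that of a lineage-tagged circulating cell, and 2051 of the 2109 passing ntCZC barcodes met the leukocyte gate, 0 the epithelial gate, 1 the fibroblast gate and 1 the endothelial gate. The summed level of the 16 epithelial gate genes was 7.51 to 97.7 CPM in ntCZC against 975 to 3916 CPM in tissue, with Cldn3, Cldn4, Wfdc2 and Cdh16 at 0 in every ntCZC library. In tissue, 33489 barcodes met the leukocyte, 5444 the epithelial, 1282 the fibroblast and 9186 the endothelial gate.

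In GRCm38, Epcam (ENSMUSG00000045394) lies on chromosome 17 from 87635979 to 87651129, Cdh1 on chromosome 8 from 106603351 to 106670246, Vim on chromosome 2 from 13573927 to 13582826 and Snai1 on the same chromosome from 167538195 to 167542814. SNAI and ZEB proteins bind the E-box CACCTG, which reads CAGGTG on the other strand. Promoters of 300 bases, from 250 before to 50 after a start site (RefSeq, GRCm38.p6), were found for 6 of the 10 genes. The promoters that hold this motif are shown because Epcam is an epithelial gene and Snai1 one of the factors that read such letters. Capitals mark the motif.
Epcam, chr17:87635729-87636028, plus strand: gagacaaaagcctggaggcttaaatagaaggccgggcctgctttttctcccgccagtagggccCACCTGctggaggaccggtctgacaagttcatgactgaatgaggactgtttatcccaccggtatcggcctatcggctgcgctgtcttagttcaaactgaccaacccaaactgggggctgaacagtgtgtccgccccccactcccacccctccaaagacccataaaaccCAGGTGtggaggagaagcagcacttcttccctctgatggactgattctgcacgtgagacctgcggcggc
Snai1, chr2:167537945-167538244, plus strand: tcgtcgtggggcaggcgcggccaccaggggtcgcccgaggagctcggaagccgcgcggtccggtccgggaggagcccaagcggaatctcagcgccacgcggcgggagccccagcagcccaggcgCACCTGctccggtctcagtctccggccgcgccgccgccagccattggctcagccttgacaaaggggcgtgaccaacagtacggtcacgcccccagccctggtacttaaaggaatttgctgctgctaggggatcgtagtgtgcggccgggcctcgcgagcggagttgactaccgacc
The Epcam promoter held the motif at positions -187 and -19 from the start and the Snai1 promoter at -126. No match was found in the windows of Vim, Zeb2, Twist1 and Twist2, and the Vim window, from 13574061 to 13574360, lies inside the bounds of the gene given above. The motif occurs in 20.2% of all 32851 promoters of this length, so its presence is a description of these letters and not evidence of binding.

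The gated classes of the tissue libraries show where each gene is used. Epithelial-gated barcodes carried Epcam and Cdh1, fibroblast-gated barcodes carried Vim, both Zeb genes, Snai1, Snai2 and both Twist genes, and endothelial-gated barcodes carried Vim, both Zeb genes and Snai2. Leukocyte-gated barcodes carried Vim and Zeb2 and less of Zeb1. The edgeR quasi-likelihood test of epithelial against leukocyte sums called 8 of the 10 genes at an adjusted p below 0.05 (4 higher, 4 lower), where 72.5% of 14855 genes tested were called. Against fibroblast sums it called 9 (2 higher, 7 lower), with 51.6% of genes called, and against endothelial sums 8 (2 higher, 6 lower), with 68.3% called. These shares of all genes are high, so a call by itself says little. Genes near 0 in a class, such as Epcam in fibroblast or Twist2 in epithelial sums, passed the filter on low counts through classes where they are high. The counts of calls are therefore no support, and the sizes of the differences are given as a description.

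Epcam encodes an adhesion molecule of simple epithelia. In epithelial-gated barcodes its level was 191, 238, 715, 84.6 and 247 CPM in tissue wt replicates 1 to 5, 611 and 643 CPM in the 2 het libraries and 578 and 350 CPM in the 2 null libraries. In fibroblast-gated barcodes it lay between 0 and 16.5 CPM over the 8 libraries with at least 20 such barcodes, and in endothelial-gated barcodes between 0 and 14.1 CPM. The epithelial values overlapped with neither class in any library. Epcam was higher in epithelial than in fibroblast sums by 6.25 ± 0.38 on the log2 scale (SE) and higher than in endothelial sums by 6.52 ± 0.30. It passed the filter through the classes where it is high, so no p is given. Cdh1, which encodes E-cadherin, the adhesion protein of the adherens junction, ran from 67.7 to 474 CPM in epithelial sums, from 0 to 11.2 CPM in fibroblast sums and from 2.83 to 7.94 CPM in endothelial sums. Tissue leukocyte sums lay between, at 15.7 to 36.0 CPM for Epcam and 7.77 to 27.7 CPM for Cdh1, and epithelial sums were higher by 3.57 ± 0.24 and 2.82 ± 0.19. The Cdh1 differences were 5.01 ± 0.35 against fibroblast and 4.78 ± 0.24 against endothelial sums. Cdh1 was highest in tissue wt replicate 5, where only 24 barcodes met the epithelial gate.

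Cdh2 encodes N-cadherin, the cadherin that replaces E-cadherin in the textbook cadherin switch. It was a low gene in every class, at 1.71 to 13.7 CPM in epithelial, 0 to 14.1 CPM in fibroblast, 0 to 7.86 CPM in endothelial and 0 to 1.82 CPM in leukocyte sums. Epithelial and fibroblast sums did not differ beyond their spread (log2 difference -0.11 ± 0.58, edgeR adjusted p = 0.900), nor did epithelial and endothelial sums (0.91 ± 0.45, edgeR adjusted p = 0.0754). Genes of a mesothelial list (Msln, Upk3b, Wt1, Lrrn4 and Krt19) summed to 67.7 to 884 CPM in epithelial sums. Krt19 is not specific to mesothelium, so this sum does not measure mesothelial cells. The part of these genes in the level of Cdh2 was not tested. The endothelial call depended on the settings and passed the threshold under 7 of them, at 1.04 to 1.36.

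Vim encodes vimentin, the intermediate filament of mesenchymal cells and many leukocytes. Its level in epithelial sums was 33.7, 64.1, 27.0, 25.4 and 16.7 CPM in wt, 17.3 and 33.3 CPM in het and 17.4 and 21.3 CPM in null libraries. Fibroblast sums held 995 to 2143 CPM, endothelial sums 531 to 992 CPM and leukocyte sums 663 to 1903 CPM. No epithelial value reached the lowest value of another class. The log2 difference of epithelial sums was -5.81 ± 0.21 from leukocyte, -5.54 ± 0.21 from fibroblast and -4.61 ± 0.20 from endothelial sums.

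Zeb1 and Zeb2 encode zinc-finger repressors of epithelial genes. Zeb1 was highest in endothelial sums, at 156 to 220 CPM, then in fibroblast sums at 59.4 to 120 CPM, leukocyte sums at 21.9 to 51.9 CPM and epithelial sums at 2.93 to 10.0 CPM. The ranges of these 4 classes did not overlap. Zeb2 ran from 273 to 711 CPM in leukocyte, 222 to 564 CPM in fibroblast, 177 to 381 CPM in endothelial and 10.0 to 127 CPM in epithelial sums, and the first 3 ranges overlapped. The highest epithelial value of Zeb2 came from tissue wt replicate 4, with 15 UMIs. Epithelial sums differed from endothelial sums by -4.51 ± 0.19 for Zeb1 and -2.67 ± 0.25 for Zeb2 on the log2 scale.

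Snai1 and Snai2 encode the zinc-finger repressors SNAIL and SLUG. Snai1 was at 0 to 44.9 CPM in fibroblast sums, 0 to 11 CPM in endothelial, 2.01 to 5.24 CPM in leukocyte and 0 to 1.48 CPM in epithelial sums. Snai2 was at 6.60 to 69.5 CPM in fibroblast, 11 to 47.6 CPM in endothelial, 0 to 10.0 CPM in epithelial and 0.155 to 1.56 CPM in leukocyte sums. The sister genes thus differed in direction between the epithelial and leukocyte classes. The log2 difference of epithelial from leukocyte sums was -2.53 ± 0.41 for Snai1, whereas it was 2.52 ± 0.35 for Snai2. Snai1 had 21 UMIs in epithelial and Snai2 43 UMIs in leukocyte sums. Both genes passed the filter through classes where they are higher, so these differences are a description and no p is given.

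Twist1 and Twist2 encode basic helix-loop-helix factors of mesenchyme. Twist1 was at 29.7, 58.7, 36.3 and 51.0 CPM in fibroblast sums of tissue wt replicates 1 to 4, 57.4 and 56.8 CPM in het and 35.3 and 29.9 CPM in null libraries. All other classes lay below, at 0 to 9.98 CPM in endothelial, 0 to 1.43 CPM in epithelial and 0 to 0.781 CPM in leukocyte sums. Twist2 was at 7.06 to 23.5 CPM in fibroblast sums and at most 1.57 CPM in any other class. Both genes were higher in fibroblast sums than in every other class without overlap. Epithelial sums differed from fibroblast sums by -6.12 ± 0.59 for Twist1 and -7.42 ± 0.68 for Twist2 on the log2 scale. These values rest on 20 and 2 UMIs in epithelial sums and are a description, since both genes passed the filter through fibroblast sums. Against leukocyte sums neither differed beyond its spread (1.06 ± 0.69 and -0.63 ± 0.85), since both classes were near 0. Against endothelial sums Twist1 differed by -2.43 ± 0.59 and Twist2 by -1.99 ± 0.91. Twist2 did not pass the threshold in the main fit, and leaving out either of 2 libraries changed this (-2.56 to -1.26 over all left-out libraries). Fibroblast sums carried both genes past the filter, so these tests are no support.

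**Figure D1:**
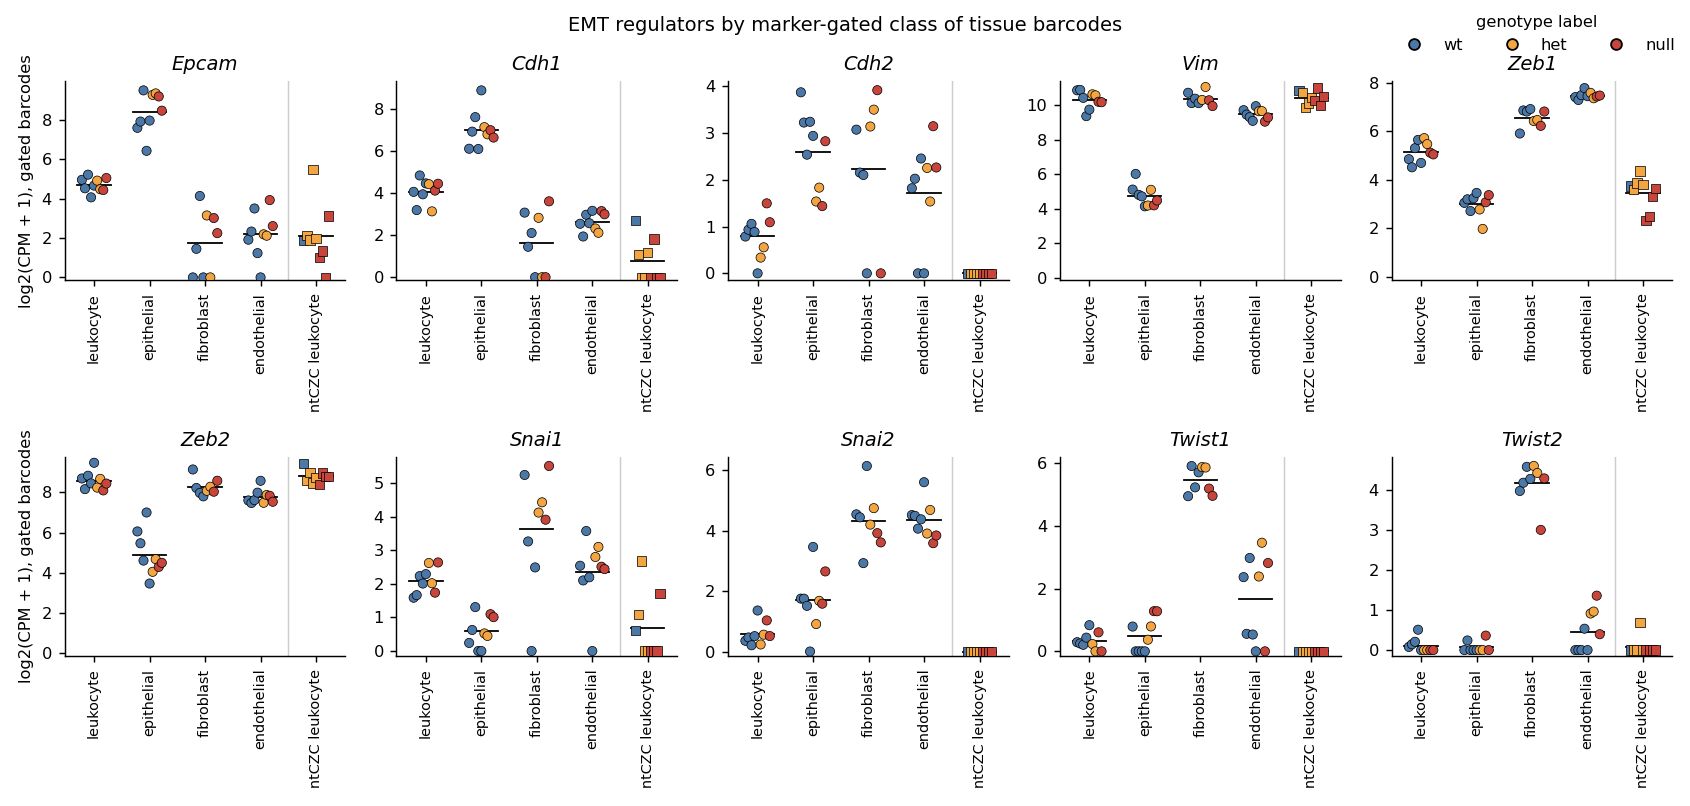
Level of each gene by gated class, as log2(CPM + 1), with 1 circle per tissue library and class of at least 20 barcodes, coloured by genotype, squares for leukocyte-gated ntCZC barcodes and a bar at each mean. Epcam and Cdh1 stand high in the epithelial column, Twist1 and Twist2 in the fibroblast column, and Zeb1 falls from endothelial to epithelial without overlap.

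Shares of barcodes with at least 1 UMI gave the same picture, with depth in view. Epithelial-gated barcodes had a median of 3276.5 UMIs against 1948 in fibroblast-gated and 1660 in endothelial-gated barcodes, so shares were also taken after each barcode had been thinned to 1000 UMIs, which left out 517, 235 and 1695 shallower barcodes. Epcam was found in 44.1% of epithelial-gated barcodes (exact 95% interval 42.8 to 45.5), and in 24.6% after thinning. The same transcript was found in 1.25% of fibroblast-gated and 0.991% of endothelial-gated barcodes (0.573% and 0.414% after thinning), classes that should lack it. The part of free RNA, doublets or gating in these counts was not tested. Vim was found in 11.3% of epithelial-gated barcodes and 3.21% after thinning, Zeb2 in 12.1% and 3.53%, and Zeb1 in 3.80% and 1.01%. Among endothelial-gated barcodes Zeb1 was found in 28.7% and 15.4% after thinning. Intervals cover counting error only. Fewer cells of a type and less RNA per cell cannot be told apart in the summed levels of whole libraries below.

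Epithelial cells of these pools were not uniform. After the values had been seen, epithelial-gated barcodes were also sorted by lists of 4 genes each, so the counts that follow are a description with no test. Barcodes with at least 3 of Slc27a2, Kap, Miox and Slc22a6, genes of the kidney proximal tubule, numbered 776 of the epithelial-gated barcodes, those with at least 2 of Krt5, Krt14, Krt15 and Trp63, genes of squamous basal cells, 321, and those with at least 2 of Foxj1, Tmem212, Ccdc153 and Dynlrb2, genes of ciliated cells, 330. In the ciliated list Epcam was found in 78.2% and Cdh1 in 73.6% of barcodes, and in the squamous basal list in 83.8% and 66.4%. In the proximal tubule list the shares were 5.03% for Epcam and 13.1% for Cdh1, although these barcodes were the deepest, with a median of 6346.5 UMIs. The same list held 47.7% of all epithelial-gated barcodes with Zeb2 and 31.2% of those with Cdh2, while it held 14.3% of epithelial-gated barcodes. Zeb2 was found in 40.3% of proximal tubule barcodes (8.14% after thinning) against 4.67% in the squamous basal and 4.24% in the ciliated list. Snai2 followed another list. It was found in 45 of 321 squamous basal barcodes (14%, exact 95% interval 10.4 to 18.3), which were 45 of the 66 epithelial-gated barcodes with Snai2, in 3 of 776 proximal tubule barcodes and in 0 of 330 ciliated barcodes, which allows a share of up to 0.909%.

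Of the 10 genes, 6 passed the filter on low counts for ntCZC against tissue, and edgeR called 2 higher and 4 lower in ntCZC, where 66% of 11905 genes tested were called. Epithelial adhesion genes were lower in the sorted blood cells and Vim and Zeb2 higher. Of the other 4 genes, Snai1, Snai2, Twist1 and Twist2 had 10 UMIs among them in all ntCZC libraries. Only Vim, Zeb1 and Zeb2 also passed the filter among ntCZC libraries alone. Epcam, Cdh1 and Cdh2 passed it through the tissue libraries, where they are high, so the count of calls is no support, and their levels are given as a description.

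Epcam was at 2.65 and 6.19 CPM in the 2 ntCZC wt libraries, at 3.15, 2.69, 41.0 and 2.69 CPM in het replicates 1 to 4 and at 0.713, 1.41, 0 and 5.57 CPM in null replicates 1 to 4. In tissue it was at 53.8, 46.7, 107, 23.7 and 21.9 CPM in wt, 152 and 122 CPM in het and 139 and 88.8 CPM in null libraries, and in the PBMC library at 4.92 CPM. In 9 of 10 ntCZC libraries Epcam lay below every tissue library, the exception being het replicate 3. The log2 difference of ntCZC from tissue was -3.66 ± 0.68 for Epcam, and -4.97 without het replicate 3. Cdh1 was at 5.31 and 0 CPM in ntCZC wt, 1.05, 0, 0 and 1.15 CPM in het and 0, 2.35, 0 and 0 CPM in null libraries, against 21.7 to 53.4 CPM in tissue and 6.33 CPM in PBMC. All 10 ntCZC libraries lay below all tissue libraries, and the fitted difference was -5.00 ± 0.42, or -5.81 without ntCZC wt replicate 1, from 19 UMIs in ntCZC. The summed epithelial gate genes moved with both genes, as given above, and their part in the difference was not tested.

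Cdh2 gave 0 UMIs in ntCZC and 2827 in tissue, where it was at 2.70 to 12.0 CPM. Against a floor of 3 counts over all ntCZC libraries it was at least 27.1-fold lower. Snai2 likewise gave 0 UMIs in ntCZC and 1323 in tissue, at least 12.7-fold lower. Snai1 gave 8 UMIs in ntCZC, and its tissue level was 4.15 times that of ntCZC (exact 95% counting interval 2.1 to 9.63). Twist1 and Twist2 gave 1 UMI each, with ratios of tissue to ntCZC of 18.8 (3.36 to 742) and 6.19 (1.10 to 246). Fibroblast gate genes, summed, were at 0 to 18.6 CPM in ntCZC and 55.4 to 636 CPM in tissue. Their part in the difference of the Snai and Twist genes was not tested.

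Vim was at 55.7 CPM in ntCZC wt replicate 3 and at 671 to 1910 CPM in the other 9 ntCZC libraries, against 301 to 1061 CPM in tissue and 293 CPM in PBMC. In 5 ntCZC libraries Vim exceeded every tissue library, and the difference was 1.13 ± 0.30 (edgeR adjusted p = 0.00292). Under the barcode filter of the study the Vim difference fell to 0.57 and did not pass (edgeR adjusted p = 0.101). Zeb2 was at 686 and 18.6 CPM in ntCZC wt, 367, 506, 345 and 401 CPM in het and 276, 486, 307 and 321 CPM in null libraries, against 122 to 243 CPM in tissue and 197 CPM in PBMC. Only ntCZC wt replicate 3, rich in haemoglobin transcripts, did not exceed all tissue libraries. The Zeb2 difference was 0.99 ± 0.26 (edgeR adjusted p = 0.00241), and 1.03 without that library. Leukocyte gate genes moved with Vim and Zeb2, summing to a median of 8504 CPM in ntCZC and 2219 CPM in tissue. Their part in the Vim and Zeb2 differences was not tested. Zeb1 took the opposite direction to its sister gene. It was at 2.85 to 19.4 CPM in ntCZC, below each of the 9 tissue libraries at 24.0 to 57.6 CPM, with a difference of -2.03 ± 0.24 (edgeR adjusted p = 5.09e-07). The endothelial gate genes moved with it, summing to a median of 2.82 CPM in ntCZC (0 to 105) and 724 CPM in tissue (462 to 998), and their part in the difference was not tested. In the PBMC library, which was not sorted for the lineage tag, Zeb1 was at 66.1 CPM, above all tissue libraries.

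**Figure D2:**
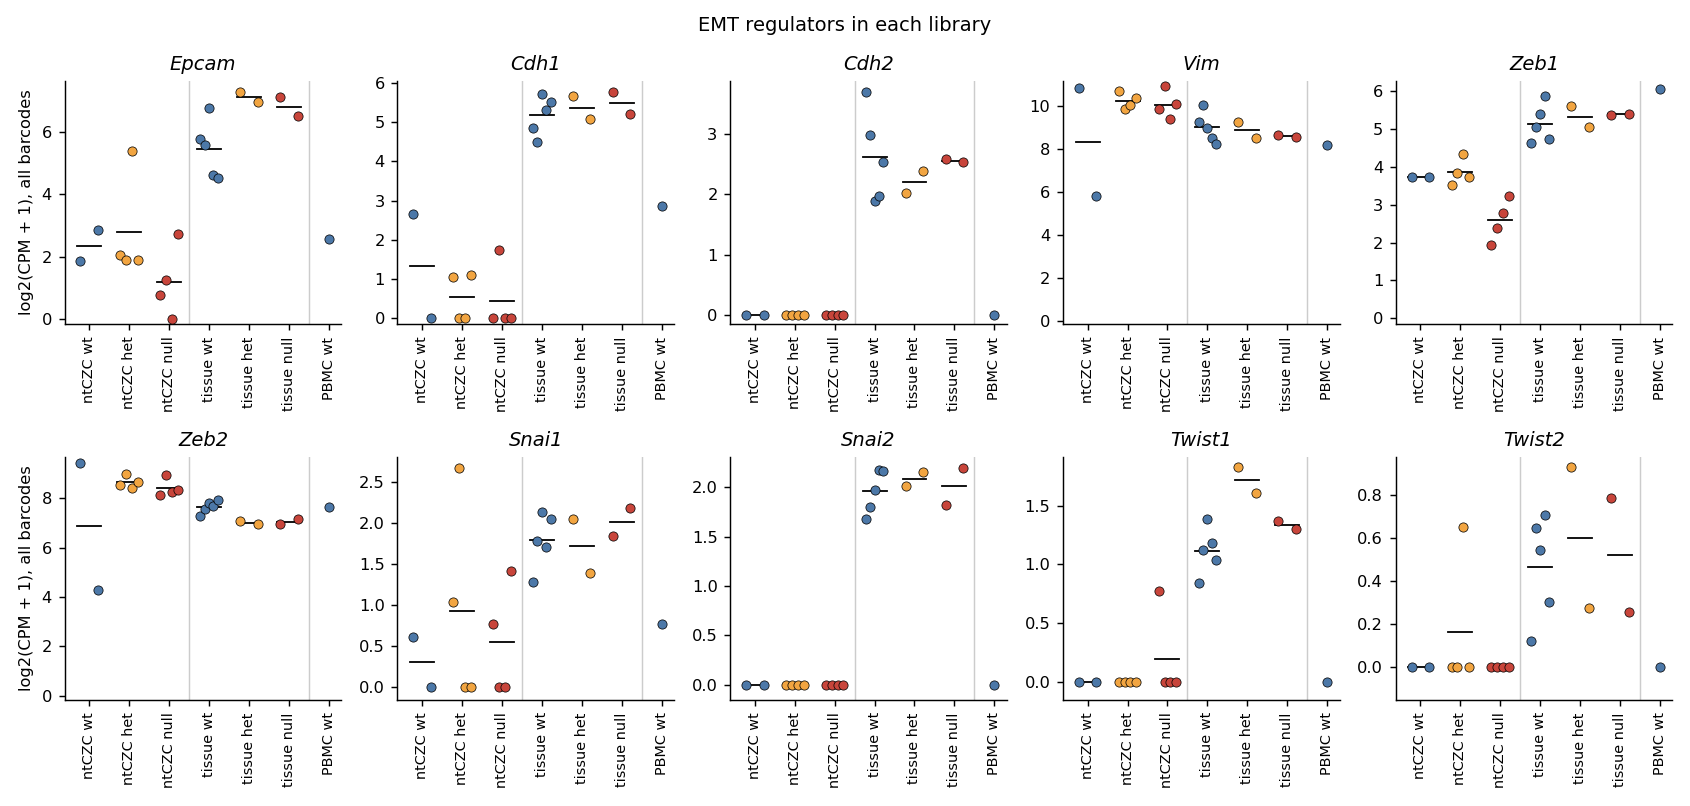
Level of each gene in every library over all its barcodes, as log2(CPM + 1), with 1 point per library, libraries grouped by kind and genotype, and a bar at the mean of each group. In Cdh1, Cdh2, Zeb1, Snai2 and Twist1 all 10 ntCZC libraries sit below all 9 tissue libraries, and for Epcam het replicate 3 at 41.0 CPM stands above the other ntCZC libraries. Cdh2, Snai2 and Twist1 had 0, 0 and 1 UMI in ntCZC, so depth limits their place below tissue. Over all genes, 4586 of 11905 tested were called lower in ntCZC. No share of all genes that separate in this way is given, so nothing is read from the separation.

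With the class held to leukocyte-gated barcodes, in 9 ntCZC libraries and 9 tissue libraries of at least 20 such barcodes, edgeR called 3 of the 5 genes tested, all lower in ntCZC, where 52.5% of 10449 genes tested were called. Epcam and Cdh1 are 2 of the 3 and passed the filter through tissue, so nothing is read from this count. The Vim and Zeb2 differences did not pass the test within this class. Vim was at 943 to 2057 CPM in ntCZC and 663 to 1903 CPM in tissue leukocytes (log2 difference 0.16 ± 0.18, edgeR adjusted p = 0.492), and Zeb2 at 337 to 699 and 273 to 711 CPM (0.18 ± 0.17, edgeR adjusted p = 0.405). Epcam and Cdh1 had 101 and 19 UMIs in ntCZC leukocytes, and their levels are given as a description. Epcam was at 0 to 7.64 CPM in 8 of the 9 ntCZC libraries and at 42.8 CPM in het replicate 3, against 15.7 to 36.0 CPM in tissue leukocytes, a difference of -1.92 ± 0.56, or -3.13 without het replicate 3. Cdh1 was at 0 to 5.41 CPM against 7.77 to 27.7 CPM, a difference of -3.44 ± 0.47, or -4.27 without ntCZC wt replicate 1. Zeb1 was at 12.4 CPM in wt replicate 1, at 11.1, 13.6, 19.6 and 12.9 CPM in het and at 4.02, 4.56, 8.94 and 11.5 CPM in null ntCZC leukocytes, against 21.9 to 51.9 CPM in tissue leukocytes, with no overlap and a difference of -1.70 ± 0.25 (edgeR adjusted p = 1.93e-05). No share of all genes without overlap is given, so nothing is read from the lack of overlap. The epithelial gate genes summed to 7.07 to 103 CPM in ntCZC leukocytes and 201 to 560 CPM in tissue leukocytes. Their part in the Epcam and Cdh1 differences was not tested. The endothelial gate genes summed to a median of 1.25 CPM in ntCZC and 55.7 CPM in tissue leukocytes, and their part in the Zeb1 difference was not tested.

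**Figure D3:**
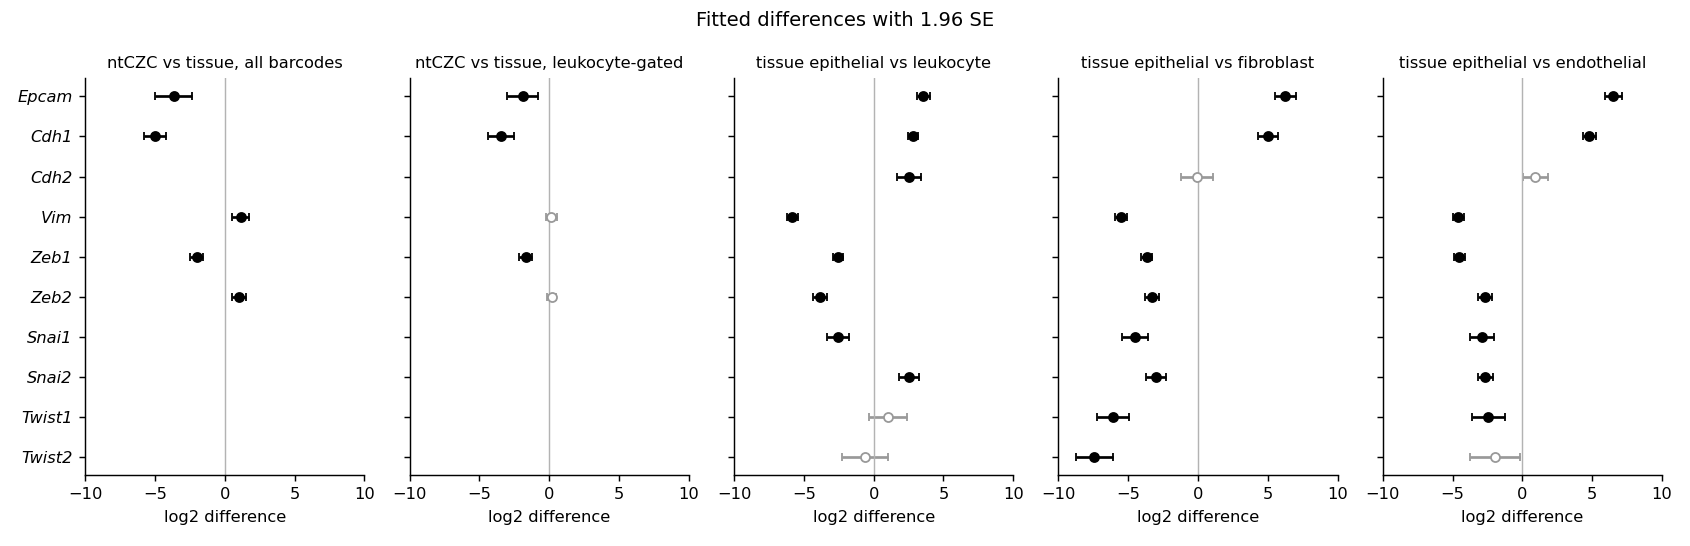
Log2 differences of the 10 genes for ntCZC against tissue over all barcodes, the same over leukocyte-gated barcodes, and epithelial-gated against the other 3 classes, with lines for 95% intervals and filled points for an edgeR adjusted p below 0.05. Cdh2 in ntCZC against tissue is not drawn because it was at 0 in every ntCZC library. Vim and Zeb2 move from above 0 over all barcodes to near 0 over leukocyte-gated barcodes, while Epcam, Cdh1 and Zeb1 stay below 0.

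The leukocyte classes within ntCZC used these genes unequally. Lists of B cell (Cd79b, Ms4a1, Mzb1), T and NK cell (Cd3d, Cd3g, Nkg7, Gzma), monocyte (Csf1r, Ctss, Lyz2, Cx3cr1), basophil (Mcpt8, Cpa3, Ms4a2, Fcer1a) and alveolar macrophage genes (Marco, Siglecf, Ear1, Plet1) were likewise chosen after the values had been seen, with at least 2 genes of a list needed, or 3 for monocytes. The monocyte list held 1338 of the 2051 ntCZC leukocyte barcodes, the B cell list 243, the T and NK cell list 148, the basophil list 12 and the alveolar macrophage list 0. Zeb2 was found in 89.2% of ntCZC monocyte-listed barcodes, 27.6% of B cell-listed and 5.41% of T and NK cell-listed ones. Zeb1 was found in 1.94%, 18.9% and 18.9% of these barcodes. In tissue leukocytes Zeb2 was found in 75% of monocyte-listed and 14.5% of T and NK cell-listed barcodes, and Zeb1 in 4.93% and 17.6%. B cell-listed tissue barcodes held Zeb2 in 22.9% and Zeb1 in 9.46%, against 27.6% and 18.9% in ntCZC. These shares are of pooled barcodes, and single libraries differ from them. They are not thinned, and leukocyte-gated barcodes had a median of 4360 UMIs in ntCZC against 2020 in tissue. Levels per library, where a list held enough barcodes, read otherwise. In T and NK cell-listed barcodes Zeb1 was at 0 to 50.3 CPM in ntCZC and 61.0 to 136 CPM in tissue. In B cell-listed barcodes Zeb1 was at 0 to 73.2 CPM in ntCZC and 22.2 to 65.6 CPM in tissue. Zeb2 in the B cell list was at 35.9 to 127 and 78.5 to 174 CPM. In ntCZC Zeb1 was found in more B cell-listed barcodes than Zeb2 in het replicates 1 (8 against 6), 2 (3 against 2) and 4 (3 against 2). Among T and NK cell-listed barcodes, 16 of those with Zeb1 in ntCZC came from het replicate 4, and Zeb2 was found in more barcodes than Zeb1 in ntCZC het replicate 1 and null replicate 2 and in tissue wt replicates 2 (166 against 162) and 3 (34 against 29) and null replicate 3 (45 against 31). In the PBMC library 66.2% of leukocyte barcodes met the B cell or T and NK cell list, and 8.16% to 51.0% did so in the ntCZC libraries of at least 20 such barcodes. In tissue leukocytes the share was 6.84% to 32.1%. The part of cell composition in the Zeb1 difference was not tested.

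Of the 2501 ntCZC barcodes, 58 held a UMI of Epcam or Cdh1. Nearly all looked like leukocytes by their other transcripts, with 57 meeting the leukocyte gate, 55 holding Ptprc, the pan-leukocyte CD45 gene, and 50 holding Vim. Het replicate 3 alone gave 33 of the 58 barcodes and 72 of the 103 Epcam UMIs. Epcam was found in 37 of 243 B cell-listed barcodes (15.2%, exact 95% interval 11 to 20.4) and 11 of 148 T and NK cell-listed barcodes (7.43%), and in 0 of 1338 monocyte-listed barcodes, which allows a share of up to 0.224%, although the monocyte-listed barcodes were deeper, with a median of 5083 UMIs against 3345 in the B cell list. In het replicate 3, 32 of 77 B cell-listed barcodes held Epcam (41.6%), and each other ntCZC library had at most 1 such barcode. The 10 Epcam UMIs of null replicate 4 came from 1 barcode. After thinning, the shares in the B cell and T and NK cell lists were 3.35% and 2.04%. Cdh1 followed the basophil list. It was found in 6 of 12 basophil-listed ntCZC barcodes, 11 of 27 in tissue (40.7%, exact 95% interval 22.4 to 61.2) and 5 of 9 in the PBMC library, against 0 of 243 B cell-listed ntCZC barcodes. These counts are small.

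Among tissue leukocytes the alveolar macrophage list held 3221 barcodes. Epcam was found in 20.8% of them (5.65% after thinning) and Cdh1 in 14.3% (4.58% after thinning), with per-library shares of 7.33% to 41.8% and 4.71% to 28.6%. In monocyte-listed barcodes of the same libraries, at a median of 3262.5 UMIs against 3637, the shares were 2.42% and 1.92% (0.616% and 0.504% after thinning). Barcodes that met several lists were deeper, with a median of 6082 UMIs, and held Epcam in 25.8% and Cdh1 in 17.7% (5.33% and 2.67% after thinning). The alveolar macrophage-listed barcodes held Vim in 96.6% and Zeb2 in 70.5%. The list made up 9.62% of tissue leukocyte barcodes and 36.4% of those with Epcam.

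**Figure D4:**
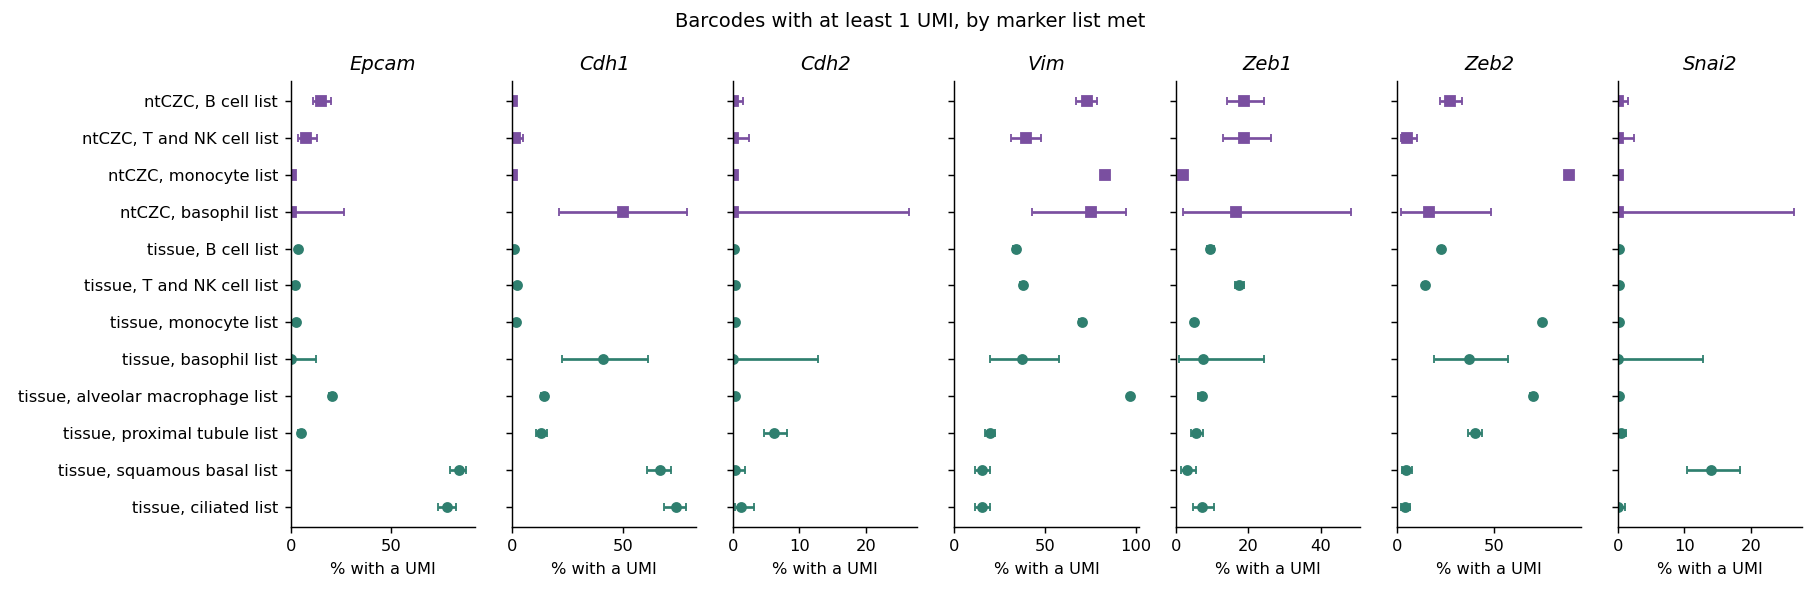
Percent of barcodes with at least 1 UMI of each gene, by marker list, for ntCZC (purple squares) and tissue (green circles), with exact 95% intervals for counting error. Epcam is found in B cell-listed ntCZC barcodes and alveolar macrophage-listed tissue barcodes, Cdh1 in basophil-listed barcodes, Zeb2 in monocyte-listed and proximal tubule-listed barcodes and Snai2 in squamous basal-listed barcodes.

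Between Nalcn genotypes, no call among the 10 genes was made in ntCZC. Only Vim, Zeb1 and Zeb2 passed the filter there. For null against wt edgeR called 0 of 3, with 0% of 9379 genes called (360 genes at an unadjusted p below 0.05, 16 genes called by DESeq2). For null against het it called 0 of 3, with 0% of genes called (686 at an unadjusted p below 0.05, 20 by DESeq2), and for het against wt 0 of 3, with 0.107% of genes called (741 at an unadjusted p below 0.05, 118 by DESeq2). Zeb1 had the largest difference. It was at 12.2 and 12.4 CPM in wt, 10.5, 13.5, 19.4 and 12.3 CPM in het and 2.85, 4.22, 5.91 and 8.36 CPM in null libraries. Over all barcodes each null library thus lay below each wt and het library, and no share of all genes that do so is given. In leukocyte-gated barcodes the ranges overlapped, at 4.02 to 11.5 CPM in null and 11.1 to 19.6 CPM in het libraries. The log2 difference of Zeb1 over all barcodes was -1.47 ± 0.45 for null against het (edgeR adjusted p = 0.485) and -1.63 ± 0.66 for null against wt (edgeR adjusted p = 0.983), and neither passed. Without wt replicate 1 the second was -3.26 (edgeR adjusted p = 0.293). The share of leukocyte barcodes that met the B cell or T and NK cell lists was 36.2, 34.4, 51.0 and 15% in het replicates 1 to 4 and 17.6, 11.7, 25 and 27.2% in null replicates 1 to 4. Within the B cell list Zeb1 was found in 37 of 140 het barcodes (26.4%) and 8 of 93 null barcodes (8.60%). In the T and NK cell list it was found in 16 of 81 (19.8%) and 5 of 33 (15.2%), and in barcodes of no list in 6 of 110 and 0 of 60. The monocyte list went the other way, at 8 of 549 het (1.46%) and 12 of 479 null barcodes (2.51%). All these barcodes are pooled over libraries, and 23 of the 37 in the B cell list came from het replicate 3. By level, Zeb1 in B cell-listed barcodes was at 44.8, 53.9, 26 and 73.2 CPM in het replicates 1 to 4 and at 0, 0 and 43.4 CPM in null replicates 1, 2 and 4, so the ranges overlapped. The part of cell composition in the Zeb1 levels of the genotypes was not tested. Null and het libraries also differed in sex, which the fit held as a covariate. Vim and Zeb2 against wt turned on a single library. Without wt replicate 1, which leaves the haemoglobin-rich replicate 3 as the only wt library and takes its spread from the other groups, Vim was higher in null by 3.17 (edgeR adjusted p = 0.0396) and Zeb2 by 2.92 (edgeR adjusted p = 0.0189), and in het by 2.85 (edgeR adjusted p = 0.0403) and 2.76 (edgeR adjusted p = 0.0153). Without replicate 3, Vim and Zeb2 differed from wt by 0.10 and -0.34 in null and by -0.21 and -0.49 in het, and none passed.

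Within tissue classes no genotype difference of the 10 genes was called either. In leukocyte sums edgeR called 0 of 6 for null against wt, with 0% of 13243 genes called (854 genes at an unadjusted p below 0.05, 65 called by DESeq2), and 0 of 6 for het, with 0% called (649 and 22). In epithelial sums it called 0 of 7 for null, with 0.498% of 13658 genes called (1225 and 291), and 0 of 7 for het, with 0.168% called (852 and 160). In fibroblast sums it called 0 of 5 for null, with 0% of 5088 genes called (193 and 1), and 0 of 5 for het, with 0% called (278 and 0). In endothelial sums it called 0 of 9 for null, with 0% of 11563 genes called (862 and 14), and 0 of 9 for het, with 0.00865% called (738 and 22). A p that misses the threshold in 2 libraries against 5 does not show that a gene was alike in both. Epcam in epithelial sums averaged 295 ± 244 CPM in wt (SD, n = 5), 627 ± 23.3 CPM in het (SD, n = 2) and 464 ± 161 CPM in null (SD, n = 2). The spread over wt libraries covered both other groups, since wt replicate 3 at 715 CPM was the highest of all, and the differences from wt were 1.11 ± 0.54 for null and 0.95 ± 0.56 for het on the log2 scale. Without tissue wt replicate 3 they were 1.49 and 1.61, and neither passed. Cdh2 in epithelial sums was at 4.81 to 13.7 CPM in wt and 1.90 and 2.56 CPM in het libraries, a difference of -1.76 ± 0.69 that did not pass (edgeR adjusted p = 0.762). The epithelial class also differed in make-up between libraries. The proximal tubule list, low in Epcam, took a larger share of it in wt replicates 1 and 2 than in any het or null library. In wt replicate 3 its share was smaller. That list held 31.2% of epithelial-gated barcodes with Cdh2. The part of cell composition in the Epcam and Cdh2 levels of the genotypes was not tested.

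Co-detection of an epithelial and a mesenchymal gene in 1 barcode was rare in epithelial-gated barcodes and rarer after thinning. Epcam or Cdh1 was found with Vim in 335 of 5444 barcodes (6.15%) and with Zeb1 or Zeb2 in 265 (4.87%). Barcodes with both had a median of 8977 and 8119 UMIs, against 2090 UMIs in barcodes with neither epithelial gene. Selection on detected transcripts by itself favours deep barcodes, so nothing is read from these medians. After thinning to 1000 UMIs, 40 of 4927 barcodes held Epcam or Cdh1 with Vim (0.812%, exact 95% interval 0.581 to 1.10) and 29 with a Zeb gene (0.589%, 0.395 to 0.844). The product of the separate shares was 0.969% for Vim and 1.36% for the Zeb genes. The share with Vim thus held the product within its interval and the share with a Zeb gene lay below it. These intervals, like those of the lists below, cover counting error of pooled barcodes and not the spread between libraries. Of the 29 barcodes with a Zeb gene, 10 came from tissue wt replicate 2 and 9 from tissue null replicate 2. Nothing is therefore read from a gap to the product. As deposited the share with a Zeb gene was 4.87% against a product of 7.35%. Within the lists, also as deposited, it was not below the product, at 7.60% against 6.75% in proximal tubule, 6.85% against 6.66% in squamous basal and 11.2% against 10.4% in ciliated barcodes, and it was below it in barcodes of no list (3.60% against 5.08%). After thinning, the intervals of the 3 lists held the product, at 0.131% (exact 95% interval 0.0033 to 0.729) against 0.214%, 0.943% (0.195 to 2.73) against 1.34% and 1.25% (0.343 to 3.18) against 1.55%. In barcodes of no list the share was 0.599% (0.371 to 0.914) against 1.22%, below the product. The proximal tubule list, high in Zeb2 and low in Epcam, held 1 of the 29 barcodes, the squamous basal list 3, the ciliated list 4 and barcodes of no list 21.

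Per library, the thinned share with Vim was 0, 1.25, 1.80, 2.5 and 0% in wt replicates 1 to 5, 0.624 and 0.923% in het and 0.742 and 0.486% in null libraries. Het and null libraries averaged 0.694% ± 0.185 (SD, n = 4) and wt libraries 1.11% ± 1.11 (SD, n = 5), a difference of -0.416 percentage points that did not pass an exact two-sided permutation test (p = 0.492, adjusted 0.508 over the 2 shares). The share with a Zeb gene was 0.538% ± 0.236 in het and null libraries (SD, n = 4) and 0.330% ± 0.523 in wt (SD, n = 5), a difference of 0.208 (exact permutation p = 0.508, adjusted 0.508). This difference was not stable, at 0.437 without tissue wt replicate 2 (exact permutation p = 0.0286, adjusted 0.0571), -0.270 with doublets kept and -3.18 with no thinning. The smallest p this design allows is 0.0159. All wt values of 0 came from libraries of 22 to 492 thinned barcodes.

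Co-detection was also counted in leukocyte-gated barcodes. In tissue, Epcam or Cdh1 was found with Vim in 1.85% of thinned barcodes against a product of 1.41%, and with a Zeb gene in 0.902% against 0.895%. In ntCZC, 6 of 1938 thinned barcodes held Vim with an epithelial gene (0.310% against a product of 0.393%) and 2 held a Zeb gene with one (0.103% against 0.283%). The exact 95% intervals of both ntCZC shares, 0.114% to 0.673% and 0.0125% to 0.372%, held the products. The share of thinned leukocyte barcodes with Epcam or Cdh1 at all was 0.873% ± 1.34 in ntCZC (SD, n = 9) and 3.26% ± 1.37 in tissue (SD, n = 9), a difference of -2.39 percentage points (exact two-sided permutation p = 0.00284). ntCZC het replicate 3 at 4.17% and het replicate 2 at 1.64% lay within the tissue range of 1.21% to 5.65%, and the other 7 ntCZC libraries were at 0 to 0.862%. Without het replicate 3 the difference was -2.80 (exact permutation p = 0.000165). The leukocyte classes of the 2 kinds also differed in make-up. The alveolar macrophage list held 0% of leukocyte barcodes in ntCZC and 9.62% in tissue, where it held 36.4% of leukocyte barcodes with Epcam. The part of cell composition in the difference of this share was not tested.

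**Figure D5:**
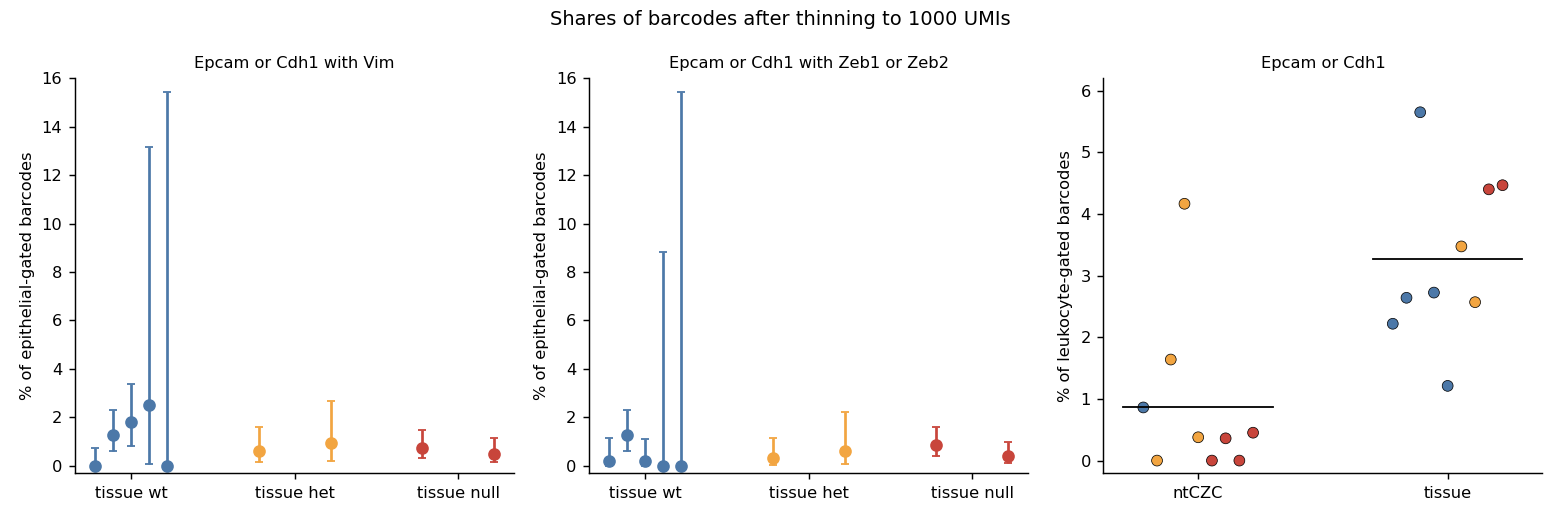
Left and middle, percent of thinned epithelial-gated barcodes that hold Epcam or Cdh1 together with Vim or with Zeb1 or Zeb2, per tissue library with exact 95% intervals, coloured by genotype. Right, percent of thinned leukocyte-gated barcodes with Epcam or Cdh1 in each ntCZC and tissue library in the same colours (blue wt, orange het, red null) with a line at the mean, where 7 of 9 ntCZC libraries lie below all tissue libraries.

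Other genes of the programme were counted from lists of pathway genes. Over all barcodes, where edgeR called 4586 of the 11905 genes tested lower and 3274 higher in ntCZC, 4 of the 10 epithelial junction genes passed the filter among ntCZC libraries alone and the others through tissue, so no count is drawn from the list. Dsp, which encodes the desmosomal protein desmoplakin, was at 0 in ntCZC and at least 68.9-fold lower, and Cgn, a tight junction gene, had 2 UMIs in ntCZC and 2355 in tissue. Of 8 regulators of the epithelial state 3 were at 0 in ntCZC and passed the filter only through tissue, so no count is drawn here either. Esrp1, an epithelial splicing regulator, was at least 27.4-fold lower, its relative Esrp2 at least 19.1-fold and Grhl2 at least 18.3-fold lower. Of 12 mesenchymal targets 4 passed the filter among ntCZC libraries alone. Ctgf, a matrix-associated growth factor at 0 in ntCZC, was at least 64.4-fold lower, and like Lox (1 UMI in ntCZC) and Mmp2 (3 UMIs) it passed the filter through tissue, while Fn1, which encodes fibronectin, was higher by 3.66 and S100a4 by 3.04. Of 9 TGF-beta ligands, receptors and SMADs 8 were tested, with 6 higher and 1 lower (median 0.66). Tgfb1 led, higher by 1.54 ± 0.17, and the receptor gene Tgfbr2 was lower (-0.46). Tgfb3 had 2 UMIs in ntCZC and 1212 in tissue. Of 6 other EMT transcription factors 2 were at 0 in ntCZC, so their calls were fixed by the filter and no count is drawn. Foxc2 had 1 UMI in ntCZC. Sox9 was at least 154-fold and Prrx1 at least 21.0-fold lower.

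Within leukocyte sums edgeR called 2660 of 10449 genes tested higher and 2826 lower in ntCZC (52.5% in all). The junction genes also passed the filter in part through tissue, and the largest difference was that of F11r at -3.48. The 1 tested regulator of the epithelial state was not called. Of the TGF-beta list 8 were tested, with 5 higher and 1 lower (median 0.44, Tgfb2 at 4.56 and Tgfbr2 at -0.88). Of the mesenchymal targets Fn1 was higher by 3.12 and S100a4 by 2.11, and those called lower had 0 to 3 UMIs in ntCZC and passed the filter through tissue. Timp3 gave 1 UMI in ntCZC, and its tissue level was 890 times that of ntCZC (exact 95% counting interval 160 to 35173). Of the other transcription factors 1 of 2 tested was lower, Tcf4 at -0.60, and 0 were higher. In the comparisons of ntCZC genotypes no list gene was called by edgeR.

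Over all 14855 genes tested between tissue classes, edgeR called 5511 higher and 5257 lower in epithelial than in leukocyte sums (median 0.0091), 4244 and 3422 against fibroblast sums (median 0.12) and 5172 and 4968 against endothelial sums (median 0.0023). The junction list was higher in epithelial sums in 8 genes against both leukocyte and fibroblast sums (medians 1.83 and 1.55, led by Cgn at 4.69 and Ocln at 4.40), with 1 lower against leukocytes, Ctnnb1 at -0.26, and 0 against fibroblasts. Against endothelial cells, which build junctions of their own, 5 were higher and 5 lower (median 0.09), with Dsp at 4.66 and Tjp1 at -2.65. Jup (-2.01), Ctnnd1 (-1.36), Ctnnb1 (-0.93) and F11r (-0.63) were the other lower genes. Of the regulators of the epithelial state 7 were higher and 1 lower against each class, with medians of 4.51, 4.42 and 4.38. Grhl2 led against leukocytes (5.42), Esrp1 against fibroblasts (6.50) and Ehf against endothelial cells (5.80), and Klf4 was the gene that went the other way (-0.68, -2.97 and -2.19). All 12 mesenchymal targets were lower than in fibroblasts (median -4.82), led by Mmp2 at -8.30, and 10 were lower and 0 higher than in endothelial cells (median -2.30), led by Sparc at -3.98. Against leukocytes 5 were higher and 4 lower (median 0.58), with S100a4 (-5.15), Fn1 (-4.48) and Mmp2 (-1.05) among the lower ones. Genes near 0 in a class passed the filter on low counts through classes where they are high. The counts of calls in the junction, regulator and mesenchymal lists are therefore no support, and the sizes are a description.

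The TGF-beta list was lower in epithelial sums in 5 genes and higher in 1 against leukocytes (median -0.39, Tgfb1 at -3.51 and Tgfb2 at 3.49), lower in 7 and higher in 0 against fibroblasts (median -0.64, led by Tgfb3 at -3.84), and lower in 5 and higher in 1 against endothelial cells (median -0.82, Tgfbr2 at -2.65 and Smad3 at 0.65). With 72.5, 51.6 and 68.3% of all genes called in these comparisons, nothing is read from the number of TGF-beta genes called. The same holds for the list that follows. Of the other EMT transcription factors 2 were higher and 2 lower against leukocytes (Sox9 at 5.24, Tcf3 at -0.59, Tcf4 at -1.28), 1 higher and 3 lower against fibroblasts (Prrx1 at -4.50, Sox9 at 1.61) and 2 higher and 3 lower against endothelial cells (Sox9 at 5.08, Prrx1 at 2.13). Between tissue genotypes the 1 list gene called was Prrx1, a mesenchymal homeobox factor, in epithelial sums. It was at 1.09, 0.363, 0, 8.46 and 0 CPM in wt, 7.61 and 12.5 CPM in het and 14.8 and 36.6 CPM in null libraries, with a fitted difference of 4.67 ± 0.73 for null against wt. The wt levels rest on 6, 2, 0, 1 and 0 UMIs, against 52 and 34 UMIs for het and 52 and 180 UMIs for null libraries, so the gene passed the filter through the groups where it was high and the call is no support. It was lost with doublets kept (edgeR adjusted p = 0.277), with a stricter gate (0.326), with the barcode filter of the study (0.0826), with a replicate block (0.670) and without any of 7 single libraries (0.0803 to 0.476). The size held in most of these, at 3.26 with doublets kept, 4.6 with the stricter gate, 4.70 with the filter of the study, 5.64 with the block and 4.19 to 5.43 with a library left out.

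Over the 35 sums of tissue library and class, the genes most like each of the 10 in log2(CPM + 1) were found by Pearson's r, given as a description because sums of 1 library share its depth and free RNA. Epcam was most like Ehf (r = 0.93), Bspry and Plpp2 (both 0.90), and Cdh1 most like Kcnk1, Gclm and Ehf (each 0.89). Vim was nearest to Emp3 (0.97), Ifi207 and Wipf1 (both 0.93). Zeb1 was nearest to Heg1 (0.96), Rbms1 (0.95) and Dpysl2 (0.94), whereas Zeb2 was nearest to Wipf1 (0.93), Snx18 and Dpy19l1 (both 0.91). Wipf1 was thus near both Vim and Zeb2, while the neighbours of Zeb1 and Zeb2 did not overlap. Snai1 was nearest to Lbh (0.79), Emilin1 and Itga8 (both 0.77), Snai2 to Hspg2, Ltbp1 (both 0.94) and Boc (0.93), and Twist1 to Cygb (0.95), Adamtsl1 and Igsf10 (both 0.94). Cdh2 and Twist2 were below the minimum mean level of 5 CPM for this measure.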

How the data were processed

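Single-cell RNA libraries (10x 3' v3) were analysed from the counts of UMIs per gene and barcode that the authors deposited. The submitters' processing notes name Cell Ranger 2.1.1, Seurat and mm10, and the matrix headers Cell Ranger 3.0.2. Hashtag counts were not used, so organs of origin are not given. Barcodes needed 200 genes or more, with mitochondrial UMIs no higher than 25%. In tissue libraries, doublets were scored against simulated pairs, and the top 0.8% per 1000 barcodes (at most 25%) were removed, 11853 in the grouped libraries and 0 in ntCZC or PBMC. A gate needed at least 2 marker genes and at least 75% of marker UMIs. Counts were summed per library and class (at least 20 barcodes) and tested by the edgeR quasi-likelihood test with TMM scaling and sex as a covariate, or the library as a block between classes, with Benjamini-Hochberg adjustment over all genes tested and a threshold of 0.05. Epithelial co-detection and the share of leukocyte barcodes with Epcam or Cdh1 were compared by exact permutation of libraries. Shares have exact (Clopper-Pearson) 95% intervals, which cover counting error only, and the floor is 3 counts. All 10 genes were named in full, pathway genes by the largest difference in each direction. The genes and lists were chosen with earlier results of these data known. Alternatives were RLE scaling, no filter on low counts, DESeq2, no sex covariate, a replicate block, the barcode filter of the study (over 100 and under 5000 genes, under 20% mitochondrial), doublets kept, a stricter gate (3 genes, 90%), thinning to 2000 UMIs and leaving out each library. Same-numbered libraries were not paired in the main fits. Of 18 correlations of their deviations from group means, 1 was above 0.1 (-0.314 to 0.243). This check cannot exclude shared mice, since the deviations mirror each other in groups of 2 libraries. Tools were R 4.3.3, edgeR 4.0.16, limma 3.58.1, DESeq2 1.42.0, Python 3.11.15, numpy 2.4.6, pandas 2.3.3 and scipy 1.17.1. Methods were tested on simulated data with known changes. The value of 1 pathway gene is not reported here.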

Additional observations from a re-analysis of the deposited data

Results flagged for a closer look

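In 48 groups of 4 to 10 libraries with enough UMIs, 6 values stood apart from the rest of their group by the size of the gap to the nearest library, and chance gives about 1 in 20 such groups. Epcam over all barcodes was 41.0 CPM in ntCZC het replicate 3, against 2.69 to 3.15 CPM in the other het libraries. Epcam in epithelial-gated barcodes was 715 CPM in tissue wt replicate 3, against 84.6 to 247 CPM. Zeb1 in fibroblast-gated barcodes was 59.4 CPM in tissue wt replicate 1, from 8 UMIs, against 112 to 120 CPM. Snai2 was high in tissue wt replicate 5 in 3 classes, at 1.56 CPM in leukocyte-gated barcodes (2 UMIs), 10.0 CPM in epithelial-gated barcodes (3 UMIs) and 47.6 CPM in endothelial-gated barcodes (6 UMIs).

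The tissue libraries whose labels name different genotypes entered no comparison, and some of their values lay above the highest tissue wt library. In the library called 2 here, Zeb1 was 63.5 CPM (highest wt 57.6), Zeb2 274 (243), Snai1 4.65 (3.39), Snai2 4.34 (3.51) and Twist2 0.908 (0.632) over all barcodes, and Cdh2 was 1.65 CPM (1.08) in leukocyte-gated barcodes. In the library called 1, Twist1 was 1.66 CPM (1.61) over all barcodes, Snai1 6.25 (3.90) in leukocyte-gated and Zeb1 154 (120) in fibroblast-gated barcodes.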

How the results depend on the processing

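Of the values of single genes, 595 with a library left out and 370 under other settings kept their direction and side of the threshold. Reversals touched uncalled values. In null against wt ntCZC, Zeb2 was -0.34 without wt replicate 3. In het against wt ntCZC, Vim was -0.21 and Zeb2 -0.49 without wt replicate 3, and Zeb1 0.17 without it and 0.074 with no sex covariate. Cdh2 in epithelial sums was 0.12 for null against wt without tissue null replicate 2. Against fibroblast sums Cdh2 was 0.040 with no filter, 0.43 without tissue het replicate 1, 0.04 without het replicate 2 and 0.25 without null replicate 2, and Twist2 against leukocyte sums was 0.31 by DESeq2. Over all left-out libraries these values ran up to 2.92 for Zeb2 in null, 2.85 for Vim and 2.76 for Zeb2 in het, down to -1.80 for Zeb1 in het, and down to -2.31 and -0.43 for Cdh2 in the 2 comparisons. The difference in co-detection with a Zeb gene was -3.18 with no thinning and -0.270 with doublets kept. The causes were not tested. Vim in ntCZC against tissue lost its call under the barcode filter of the study (0.57).

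With no filter on low counts 10 of the 10 genes were called for ntCZC against tissue and 6 within leukocytes, where DESeq2 called 5. The main fits of these comparisons called 66% and 52.5% of all genes tested. No share of all genes is given for them under other settings, so nothing is read from these counts. Over all genes, the counts called with no filter and by DESeq2 were 4 and 16 for null against wt ntCZC, 60 and 20 for null against het, 92 and 118 for het against wt, where RLE scaling gave 5 and no sex covariate 3. For null and then het against wt in tissue, no filter gave 37 and 1 in leukocyte, 163 and 79 in epithelial, 35 and 85 in fibroblast and 148 and 202 in endothelial sums. DESeq2 gave 65 and 22, 291 and 160, 1 for null in fibroblast sums, and 14 and 22 in the last class. With no sex covariate the counts were 1 for null in leukocyte, 109 and 36 in epithelial, 1 for null in fibroblast and 7 and 2 in endothelial sums. The barcode filter of the study gave 1 for null in leukocyte and 0 for het in endothelial sums, doublets kept gave 10 and 0 in epithelial and 0 for het in endothelial sums, and the stricter gate 23 for null in epithelial, 3 for null in fibroblast and 0 for het in endothelial sums.

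The numbers do not pair the libraries, and no animal is named. With a replicate block, 7 of the genes were called for ntCZC against tissue, 4 within leukocytes and 0 between genotypes. Genes called with the block were 4 for het against wt ntCZC, 1 each for null and het in leukocyte, 0 and 0 in epithelial and 1 for null in fibroblast sums, and Prrx1 in epithelial sums lost its call (edgeR adjusted p = 0.670). Without the library block between classes, 8, 9 and 10 genes were called. No share of all genes is given for these counts or for the 7 and 4 above, so nothing is read from them.

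With each library left out in turn, 6 to 8 of the genes were called for ntCZC against tissue (7262 to 9047 of all genes), 3 to 3 within leukocytes (5001 to 5708), 0 to 2 for null against wt ntCZC (0 to 64), 0 to 0 for null against het (0 to 25) and 0 to 2 for het against wt (2 to 96). In tissue genotypes 0 to 0 of the genes were called, with 0 to 4 and 0 to 0 of all genes for null and het in leukocyte, 0 to 139 and 5 to 45 in epithelial, 0 to 3 and 0 to 1 in fibroblast and 0 to 5 and 0 to 5 in endothelial sums. Epithelial sums against leukocyte, fibroblast and endothelial sums gave 8 to 8 (10172 to 11035), 9 to 9 (6701 to 7865) and 8 to 10 (9482 to 10371). The co-detection differences were -0.693 to -0.0682 for Vim and 0.108 to 0.437 for the Zeb genes, the latter at an exact permutation p of 0.0286 without tissue wt replicate 2 (adjusted 0.0571), and the leukocyte share differed by -2.80 to -2.09. Depth limits the Snai and Twist genes in ntCZC, where 8 UMIs at most were counted, and epithelial sums of tissue wt replicates 4 and 5, with 76 and 24 barcodes.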

Other observations

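The tissue libraries without a clear genotype, called 1 and 2, showed the levels of the classes described above. Epithelial-gated barcodes held Epcam at 335 and 256 CPM, Cdh1 at 118 and 194 CPM, Vim at 15.1 and 25.4 CPM and Zeb2 at 33.4 and 45.4 CPM. Fibroblast-gated barcodes held Vim at 1599 and 1011 CPM and Twist1 at 51.2 and 53.3 CPM. Endothelial-gated barcodes held Zeb1 at 172 and 219 CPM and Zeb2 at 207 and 222 CPM. Leukocyte-gated barcodes held Epcam at 11 and 11.1 CPM, Cdh1 at 16.6 and 17.6 CPM and Zeb1 at 37.0 and 31.3 CPM.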
